A study of Mus musculus with 7 samples.

Results

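Gene expression was measured in macrophages sorted from normal mouse brain, on 3 of the 7 arrays of a study of brain macrophages, and the levels in this 1 group are described here without a contrast. The 3 arrays are those whose titles name macrophages of normal brain, and the other 4 samples of the study, macrophages of GL261 glioma tumours, enter no value. The mice were of the C57/Bl6 strain and 8 weeks old, and their brains were digested with papain. Cells were then sorted by GFP and by F4/80, a surface protein of mature macrophages. The tumour-bearing mice of the study had received GFP-labelled bone marrow. Whether the normal mice had received it too, and which GFP gate was used for them, is not stated in the labels. They also do not say whether the 3 arrays came from separate mice, so the spread between arrays may be technical in part.

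The brain holds several kinds of macrophage. Microglia are the resident macrophages of the brain tissue, come from the yolk sac and depend on the receptor CSF1R. Border-associated macrophages line the vessels, the meninges and the choroid plexus, and carry scavenger receptors such as CD206 and stabilin. Monocytes and dendritic cells come from the bone marrow and are found in blood, in the meninges and in the choroid plexus. F4/80 is shared by most of these cells.

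The MAS5 signal of an array is a linear intensity with no unit of concentration, and it was available for 45101 probe sets, of which 34945 carried 1 gene symbol and stood for 18193 genes. Each gene was given the value of its probe set with the highest mean, on the scale log2(signal + 6), and a percentile of mean signal among all genes. Probe sets differ in how well they bind their target, so a percentile ranks signals and not numbers of transcripts. The background level of an array was the 95th percentile of 27 unspiked bacterial control probe sets, which was a signal of 16.3, 17.3 and 20.1 on arrays 1, 2 and 3. In all, 11378 of the 18193 genes, or 62.5%, were above background on all 3 arrays, 3633 on some and 3182 on none. At a signal of 100 on every array the share of all genes was 48.7%. The counts of gene lists below are to be read beside these shares. The arrays had been scaled to a trimmed mean signal of 500, while their median signals over all probe sets were 73.0, 52.2 and 49.5. Over all genes, Pearson's r of the log2 values was 0.953 between arrays 1 and 2, 0.949 between arrays 1 and 3 and 0.938 between arrays 2 and 3, as a description across genes that share their arrays. The 3′ to 5′ ratio of the Gapdh control probe sets lay between 2.39 and 2.43 on the 3 arrays.

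**Figure D1:**
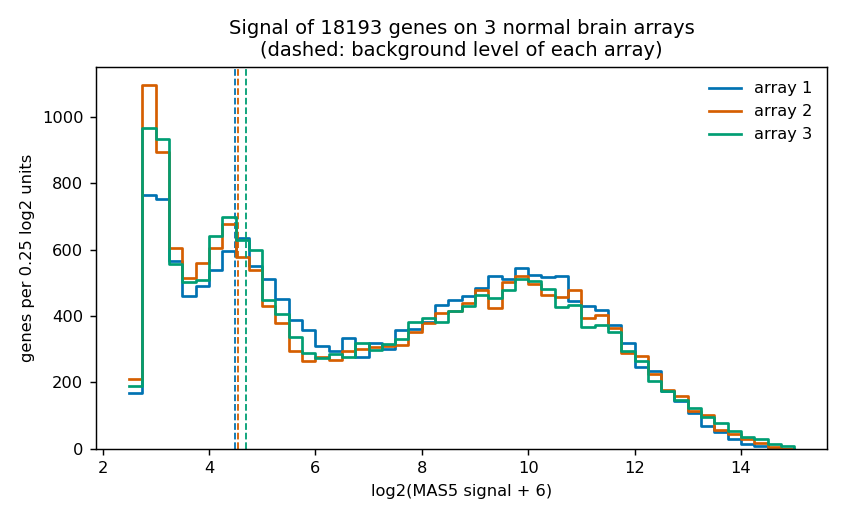
Number of genes in each step of 0.25 log2 units (vertical axis) by log2(MAS5 signal + 6) (horizontal axis) on normal brain arrays 1, 2 and 3, for 18193 genes, with the background level of each array as a dashed line at 4.48, 4.54 and 4.70. The 3 curves have a peak of genes at or under background and a broad second peak near 10, and array 1 has fewer genes in the lowest steps than arrays 2 and 3.

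The 30 genes with the highest mean signal were led by genes of protein synthesis, of the cytoskeleton and of macrophage function. Among them 13 encode cytosolic ribosomal proteins, with Rps14 first of all genes at signals of 22269, 24632 and 31618 on arrays 1, 2 and 3. Lyz1, which encodes an antibacterial lysozyme, ranked 2nd with signals of 20970, 24367 and 30813. C1qb, a chain of the first complement component C1q, ranked 7th with signals of 19218, 23098 and 28436. The chemokine gene Ccl3 ranked 8th, at 19180, 22012 and 28119. Cd74, the invariant chain that guides MHC class II molecules to the endosome, ranked 13th, and H2-Aa, an MHC class II chain, ranked 14th. Tmsb4x, Actb and Cfl1 of the actin cytoskeleton, the iron store Fth1, the calcium-binding S100a9, the chaperone Hspa1b, the galectin Lgals1, the MHC class I light chain B2m, the protease Ctss and the protease inhibitor Cst3 were among the 30 as well. The other members were Tpt1 and Naca. In 11 of the 30 the probe set was of a kind (x_at) whose probes can bind related sequences, and in 2 of a kind (s_at) shared by transcripts of a family. Besides ribosomal protein genes these were Lyz1, C1qb and Cfl1 (x_at) and H2-Aa (s_at). The level of each of these single genes is therefore uncertain.

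All 30 of these genes, and 99 of the top 100, were lowest on array 1 and highest on array 3. Among the 11378 genes above background on all arrays 17.0% had that order. The mean deviation of the top 30 from the mean of the arrays was -0.24, -0.04 and 0.28 log2 units on arrays 1, 2 and 3. Of 18 hybridisation control probe sets, whose RNA is added to every sample in equal amount, 17 had the same order, and array 3 exceeded array 1 by 0.79 log2 units in them against 0.52 in the top 30 genes. The part of hybridisation or scanning in the order of the high signals was not tested. An order of array 1, 2 and 3 in the genes described here is therefore given as measured and is not read as a difference between the cells. Genes above background on at least 1 array had mean deviations of 0.12, -0.05 and -0.07 on arrays 1, 2 and 3. A highest value on array 1 is likewise given as measured only.

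The markers that most macrophages share were high on every array, with 1 exception. All 17 pan-macrophage and leukocyte genes were above background on all 3 arrays, and their median percentile was 98.4. Adgre1, which encodes F4/80 and so was used by the sort, had signals of 8547, 7395 and 8758 (log2 mean 13.004 ± 0.13, SD, n = 3). Csf1r, the receptor for the growth factors that keep microglia alive, gave 13600, 13899 and 17243. Array 2 was lowest for Adgre1, and arrays 1 and 2 were close for Csf1r. The lysosomal Cd68 gave 7602, 7951 and 8914, and the Fc receptor gene Fcgr1 gave 6413, 5720 and 5450. The ITAM adaptors Tyrobp and Fcer1g and the leukocyte membrane proteins Laptm5 and Cd53 stood between the 99.6th and the 99.7th percentile. The exception was Itgam, which encodes the integrin CD11b and is a usual surface marker of microglia and myeloid cells. Its 1 probe set gave 266, 90.1 and 70.9, the 48.3th percentile, with array 1 above the others, and whether that probe set binds poorly was not tested.

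Most genes that mark homeostatic microglia were high, while the transcription factor gene Sall1 was near background. Of 24 such genes measured, 22 were above background on all 3 arrays, and the median percentile was 93.9. Fcrls, an Fc receptor-like gene of microglia, gave signals of 8575, 9152 and 10839. Olfml3 gave 6203, 6246 and 6891, and the lysophospholipid receptor Gpr34 gave 5306, 5549 and 5199. These markers varied little, with SDs of 0.17 log2 units for Fcrls, 0.08 for Olfml3 and 0.05 for Gpr34 (n = 3). Tmem119, a membrane protein of microglia, gave 4168, 4541 and 5144, at the 94.7th percentile. P2ry12, the ADP receptor that directs microglial processes to sites of injury, gave 2143, 1862 and 2940, and array 3 was the highest. Cx3cr1, the receptor for fractalkine, gave 5644, 4690 and 6558. The lectin gene Siglech gave 1390, 1066 and 1364, at the 78.9th percentile.

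Sall1, which maintains microglial identity, gave 25.3, 7.86 and 33.7, against background signals of 16.3, 17.3 and 20.1, so that array 2 was under background. A second Sall1 probe set was at background on all 3 arrays. The fructose transporter gene Slc2a5 gave 64.4, 5.36 and 102, again with array 2 under background. The inhibitory receptor gene Lag3 had the widest range among the microglial genes above background on all arrays, with 245, 409 and 64.4. Of 8 defining microglial markers measured, 6 were above background on every array.

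Genes of border-associated macrophages were measured at high percentiles in the same RNA. Of 20 measured, 19 were above background on all arrays, with a median percentile of 94.1, and all 8 defining markers were among the 19. Mrc1, which encodes the mannose receptor CD206, gave 9313, 10328 and 12624. Stab1, the scavenger receptor stabilin, gave 7901, 8376 and 10245, and the platelet factor gene Pf4, which these macrophages also express, gave 8545, 8848 and 7881. F13a1, the coagulation factor XIII chain, gave 5762, 6177 and 4855. Pf4 and F13a1 were lowest on array 3, unlike Mrc1 and Stab1, which were highest there. The transcription factor gene Maf and the secreted Wfdc17 stood at the 99.1th and 99.04th percentile.

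Other markers of the same cells were lower in rank. The folate receptor gene Folr2 gave 788, 1073 and 578, and the carbonyl reductase gene Cbr2 gave 849, 588 and 838. Cd163, the haemoglobin scavenger receptor, gave 482, 466 and 284. Lyve1, a hyaluronan receptor of perivascular and meningeal macrophages, gave 178, 174 and 33.0, so that array 3 was low. A second Lyve1 probe set differed between arrays in another way, with log2 values of 7.33, 5.97 and 6.33. The lectin gene Cd209f was above background on array 1 only, at 60.5.

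**Figure D2:**
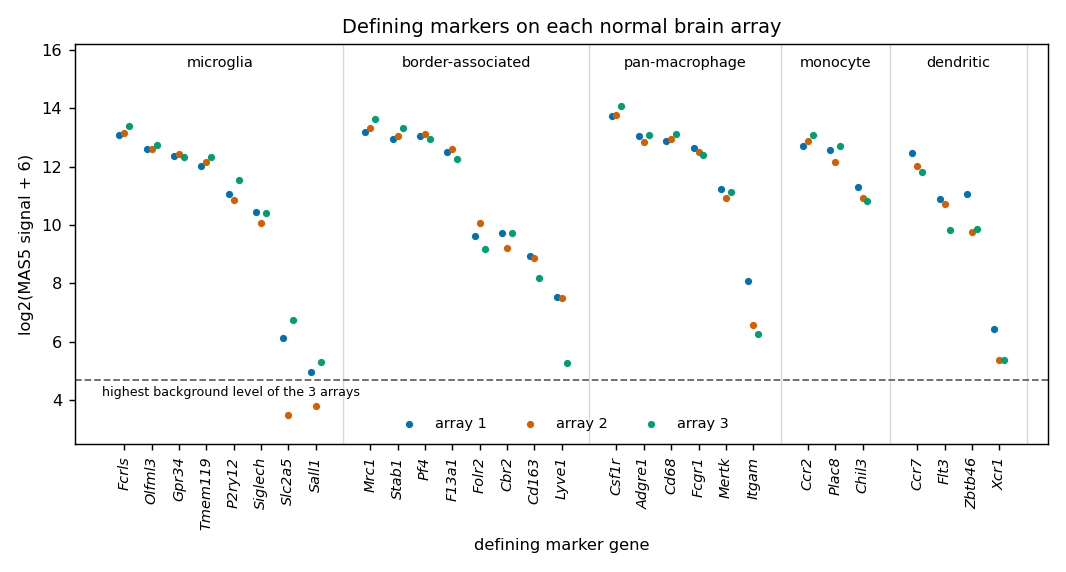
Defining markers of microglia, border-associated macrophages, macrophages in general, monocytes and dendritic cells (horizontal axis) by log2(MAS5 signal + 6) (vertical axis), with 1 point for each of the 3 normal brain arrays and the highest background level of the 3 arrays as a dashed line at 4.70. Most markers lie well above the line with the 3 points close together, while Slc2a5 and Sall1 fall under it on array 2 and Itgam and Lyve1 differ between arrays.

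Monocyte and dendritic cell genes were above background throughout. All 15 monocyte genes measured passed on every array, with a median percentile of 93.0. Ccr2, the chemokine receptor through which monocytes leave the marrow, gave 6597, 7549 and 8652, the 97.6th percentile. Plac8 gave 6126, 4562 and 6601, and the chitinase-like Chil3 gave 2500, 1932 and 1818. These 3 genes are the defining monocyte markers measured, and each had all 3 arrays far above background. Cd44, the hyaluronan receptor of leukocytes, was nearly equal on the arrays at 4021, 4049 and 4025. Fibronectin, Fn1, varied more, with 1750, 711 and 1822.

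All 13 dendritic cell genes were above background on every array, with a median percentile of 92.8. Highest in rank were Sirpa and Bst2, at the 99.4th and 98.4th percentile, which also belong to the Fc receptor and interferon lists below. Of the defining markers Ccr7 was at the 94.3th percentile, while Flt3 and Zbtb46 were at the 80.7th and 78.1th. Ccr7, the receptor that leads dendritic cells to lymph nodes, gave 5665, 4175 and 3593. Flt3, the receptor for the growth factor of dendritic cells, gave 1908, 1697 and 910. The transcription factor gene Zbtb46 gave 2150, 870 and 918, and Xcr1, the receptor of cross-presenting dendritic cells, gave 81.5, 35.9 and 35.0. All 4 of these defining markers were highest on array 1. The mean deviation of the dendritic cell list there was 0.15 log2 units, against 0.12 over all genes above background on at least 1 array. In RNA from sorted cells as a whole, fewer cells of a type and less RNA per cell cannot be told apart, so these levels give no share of microglia, border-associated macrophages, monocytes or dendritic cells.

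Transcription factors of the macrophage lineage spanned nearly the whole range of signals. Of 32 measured, 29 were above background on all arrays, with a median percentile of 86.0. Klf6 ranked highest in the list, at 15541, 17438 and 21593. Maf, Id2, Klf4 and Cebpa followed, between the 97.8th and the 99.1th percentile. Spi1, which encodes the master regulator PU.1 of the myeloid lineage, gave 1878, 1065 and 1082, at the 79.2th percentile. Rara, a retinoic acid receptor, was above background on array 3 only, with 12.97, 17.3 and 177. Bhlhe41 gave 240, 54.6 and 270, with array 2 the lowest. Sall3, a relative of Sall1, was the lowest in rank and passed on array 1 only.

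MHC class II molecules present peptides of engulfed proteins to helper T cells, and their genes were among the highest in this RNA. All 15 genes of the class II list were above background on every array, with a median percentile of 98.2, and 6 of the 15 stood in the top 1% of all genes. H2-Aa gave 18566, 20625 and 25630, H2-Eb1 gave 15495, 17791 and 22253, and H2-Ab1 gave 13576, 15986 and 18280. The peptide-loading H2-DMa and H2-DMb2, the modulators H2-Oa and H2-Ob, and the thiol reductase Ifi30 lay between the 91.5th and the 99.4th percentile. Ciita, the coactivator that controls class II transcription, gave 1309, 1076 and 794, at the 75.8th percentile. The costimulatory Cd86 gave 2503, 1934 and 2129, and Cd80 gave 514, 264 and 470. H2-Eb2 was the lowest in rank, at 324, 163 and 263, and still lay far above background.

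Promoters of class II genes are known to share a module of X and Y boxes, the latter bound by the factor NF-Y. The promoter windows of H2-Aa and H2-Eb1, 2 of the highest class II genes, are shown because both hold the Y box core. The letters searched were TGATTGG and, on the other strand, CCAATCA, in 250 bases before to 50 bases after each gene start of the RefSeq annotation of GRCm38.p6. The window of H2-Aa is chr17:34287774-34288073 on the minus strand, with the match 50 bases before the start. That of H2-Eb1 is chr17:34305617-34305916 on the plus strand, with the match 61 bases before the start. Both are written 5′ to 3′ on the strand of the gene, with the core in capitals.
H2-Aa: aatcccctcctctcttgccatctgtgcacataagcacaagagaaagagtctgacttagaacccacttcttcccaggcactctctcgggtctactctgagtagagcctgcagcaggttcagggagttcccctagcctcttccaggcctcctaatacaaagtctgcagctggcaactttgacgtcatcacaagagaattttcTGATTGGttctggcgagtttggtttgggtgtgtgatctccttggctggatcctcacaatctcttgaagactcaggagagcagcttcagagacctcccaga
H2-Eb1: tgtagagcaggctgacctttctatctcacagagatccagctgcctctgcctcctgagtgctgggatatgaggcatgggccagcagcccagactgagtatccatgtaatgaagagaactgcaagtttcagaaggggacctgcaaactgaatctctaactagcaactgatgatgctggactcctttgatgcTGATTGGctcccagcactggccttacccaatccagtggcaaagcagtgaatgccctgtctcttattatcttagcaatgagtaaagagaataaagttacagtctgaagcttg

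The core was found in the windows of 6 of the 10 class II genes that had one, namely H2-Aa, H2-DMb2, H2-Eb1, H2-Eb2, H2-Oa and H2-Ob, against 8.995% of all 27025 genes with a window and 7.82% of all 32851 windows. It was also found for 9 of 22 cell cycle genes, 4 of 12 MHC class I genes and 4 of 11 heat shock genes, so it was not limited to the class II list. Among the 6 genes the percentile of signal ran from 55.005 for H2-Eb2 to 99.9 for H2-Aa. Within the list the core was thus present in genes of very different signal. The window of H2-Aa was the only 1 of the 10 with TGACGTCA, the cyclic AMP response element, which was found for 2.03% of all genes with a window. In all, 12 motifs were searched, and the choice of this one for display was made after its matches were seen. The core is contained in the longer motif CTGATTGG, also searched and found in 4 of the 10. A match is a run of letters and no proof of binding.

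MHC class I genes, which present peptides of the cell's own proteins, were high too. All 14 measured were above background on every array, with a median percentile of 95.5. H2-K1 gave 11288, 12037 and 14052, and H2-D1 gave 10340, 10817 and 12675. These heavy chains are alike in sequence and can share probes. The chaperones Calr and Tapbp stood at the 99.6th and 99.1th percentile. The peptide transporter Tap2 was the lowest in rank, at 460, 302 and 450.

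Complement genes ranged from the 0.64th to the 99.97th percentile. Of 23 measured, 17 were above background on all arrays, a share of 73.9% against 62.5% of all genes, 4 on some and 2 on none, with a median percentile of 50.7. The C1q chains C1qa and C1qc gave 10859, 11903 and 13963 and 11112, 12077 and 14170. The receptors for the anaphylatoxins, C5ar1 and C3ar1, gave 9176, 10462 and 12187 and 4765, 4918 and 4873. C3ar1 was thus nearly equal on the 3 arrays. Hc, which encodes C5, and C8a of the membrane attack complex were not above background on any array. C2 gave 21.4, 8.49 and 136, so that array 2 was under background and array 3 the highest. C6 gave 32.3, 121 and 25.1, with array 2 the highest.

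All 17 genes of Fc receptors and ITAM signalling were above background on every array, with a median percentile of 93.1. Besides Fcer1g and Tyrobp, the inhibitory receptor Sirpa for the signal CD47 gave 11576, 13023 and 15111. The low-affinity Fc receptors Fcgr3 and Fcgr2b stood at the 98.5th and 97.5th percentile. Trem2, a lipid receptor that signals through TYROBP in microglia, gave 5543, 5430 and 6455. Trem1, which amplifies inflammatory signals, was the lowest in rank and gave 971, 452 and 596, with array 1 the highest.

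Among Toll-like receptors and their partners, 18 of 19 were above background on all arrays, with a median percentile of 85.1. Ly86, the partner of the receptor CD180, gave 8331, 11816 and 13857. Tlr2, the receptor for bacterial lipopeptides, was nearly equal on the arrays at 6199, 6506 and 6413. Tlr1 was at the 94.3th percentile and Cd14, the coreceptor for endotoxin, at the 98.5th. Tlr9, the receptor for bacterial DNA, gave 99.5, 34.8 and 50.02, and Tlr8 gave 19.1, 21.4 and 13.1, under background on array 3. The adaptor Ticam1 had 468, 83.5 and 154, among the widest ranges of the list.

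Scavenger receptors and genes for the uptake of dying cells were mixed. Of 21 measured, 19 were above background on all arrays, or 90.5% against 62.5% of all genes, with a median percentile of 79.5. The integrin chain Itgav gave 8890, 9276 and 11840, Scarb2 gave 5878, 5137 and 6537, and Pros1, which bridges dying cells to TAM receptors, gave 4386, 6410 and 5413. The TAM receptors Axl and Mertk gave 4980, 4187 and 4590 and 2402, 1930 and 2255. Tyro3, the other TAM receptor, was above background on array 2 only. Timd4, a receptor for phosphatidylserine, gave 17.8, 186 and 23.6, with array 2 the highest. Cd5l gave 193, 47.3 and 41.3, with array 1 the highest.

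Lysosomal genes had the highest median percentile of any functional list except the ribosomal proteins, at 98.8. Of 28 measured, 27 were above background on all arrays, and 13 were in the top 1% of genes. The cysteine protease gene Ctss gave 16240, 18632 and 23310, and its inhibitor Cst3 gave 15906, 18057 and 23374. Lyz2, the lysozyme gene of myeloid cells, gave 13227, 16756 and 20668, and the aspartic protease gene Ctsd gave 13579, 15171 and 17846. Ctsf and Ctse were lower, at the 56.6th and 69.7th percentile. Ctsk, the cathepsin of osteoclasts, gave 2.93, 6.07 and 29.2 and passed on array 3 only.

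The genes described as marking disease-associated microglia were all detected in these normal brains. All 23 measured were above background on every array, with a median percentile of 94.8. Apoe, the lipid carrier, gave 11229, 13155 and 15977. Fth1, B2m, Lyz2, Ctsd, Tyrobp and Trem2 belong to this list and to others above, so its median is no separate evidence. Clec7a, also in the Fc receptor list, was at the 97.1th percentile, and Itgax, also in the dendritic cell list, at the 92.8th. Gpnmb was at the 87.0th and Lpl at the 85.9th. Cst7, a cystatin, was the lowest in rank, with 148, 171 and 180.

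Iron and haem genes were led by Fth1, with 20183, 22526 and 28030. Of 18 measured, 16 were above background on all arrays, with a median percentile of 79.6. Slc11a1, the metal transporter of the phagosome, gave 6243, 4250 and 3870, Hfe gave 3114, 3261 and 3030, and the haem-degrading Hmox1 gave 3211, 2540 and 2668. Slc11a1 was the highest on array 1, while Hfe differed little. Hpx, the haem carrier of plasma, gave 26.5, 2.52 and 11.9 and passed on array 1 only.

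Chemokine genes were high as a group. Of 24 measured, 23 were above background on all arrays, with a median percentile of 93.4. Ccl4, which like Ccl3 encodes a macrophage inflammatory protein, gave 10657, 12137 and 14821. The neutrophil attractant Cxcl2 gave 9985, 11129 and 12646, and the monocyte attractants Ccl2 and Ccl12 gave 9864, 11230 and 12425 and 9341, 11324 and 11850. These 4 genes and Ccl3 were at the 98.96th percentile or higher. Ccl11, the attractant of eosinophils, was not above background on any array, with 15.32, 6.52 and 9.28. Cxcl12 gave 438, 35.3 and 568, the widest range of the list at an SD of 2.09 log2 units, with array 2 the low one.

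Of 17 chemokine and chemoattractant receptors, 16 were above background on all arrays, with a median percentile of 80.5. Cxcr4, the receptor for CXCL12, gave 10161, 11913 and 15486. C5ar1, Ccr2 and Cx3cr1 followed, between the 96.1th and the 98.9th percentile. Ccrl2 was nearly equal on the arrays at 5521, 5510 and 5651. Ccr3, the eosinophil receptor for CCL11, was not above background on any array, as was true of the gene of that ligand, Ccl11.

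Cytokine genes were more dispersed. Of 28 measured, 23 were above background on all arrays, 3 on some and 2 on none, with a median percentile of 68.4. Il1b, which encodes interleukin 1 beta, gave 11588, 13209 and 15656, the 99.5th percentile. Il1rn, its natural antagonist, gave 3126, 2715 and 3384, Osm gave 4335, 3158 and 3964, and Tnf gave 3593, 2185 and 3224. Array 2 was the lowest for each of these last 3. Il18 was at the 86.3th percentile and Igf1, a growth factor for neural cells, gave 1413, 2577 and 1903. Il6 gave 332, 167 and 580. Csf3 and Il12a were not above background on any array, while Il13 and Il23a passed on arrays 1 and 2 only.

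Purinergic receptors and ectonucleotidases, through which microglia sense ATP and ADP, ranged from the 15.38th to the 95.6th percentile. Of 17 measured, 10 were above background on all arrays, a share of 58.8% against 62.5% of all genes, 5 on some and 2 on none, with a median percentile of 42.5. P2rx7, the ATP-gated channel upstream of the inflammasome, gave 4958, 4663 and 6250. P2rx4 gave 3626, 4781 and 5353, and P2ry13 gave 3916, 3466 and 4161. P2ry6, the UDP receptor that triggers phagocytosis in microglia, was almost the same on the 3 arrays, with 3485, 3465 and 3488. The adenosine receptor gene Adora3 gave 30.5, 15.0 and 204, P2ry1 gave 53.5, 2.47 and 78.4, and Nt5e gave 78.2, 13.3 and 165. Array 2 was under background in these last 3. P2rx3 and P2ry4 were not above background on any array.

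Immediate early genes, which are transcribed within minutes of a stimulus, were among the highest lists. All 3 preparations had been digested with papain and sorted, and no undigested preparation is among the arrays. Of 27 measured, 26 were above background on all arrays, with a median percentile of 98.0 and 9 members in the top 1% of genes. Nfkbia, the inhibitor of NF-kB that NF-kB itself induces, gave 15517, 17574 and 21357. Fos gave 12518, 14380 and 17498, Egr1 gave 11405, 14726 and 16406, and Jund gave 10223, 12253 and 16292. Junb was lower, at the 77.0th percentile, and Myc gave 1493, 435 and 785. Fosl1 was above background on array 1 only, with 49.2, 2.03 and 15.5.

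All 14 heat shock chaperones were above background on every array, with a median percentile of 98.2. Hspa1b, the inducible HSP70, gave 17215, 20994 and 25511, and Hspa8, the constitutive form, gave 13375, 15378 and 19174. Hspa1b and its near-identical neighbour Hspa1a can share probes, so their levels cannot be separated with certainty. Hsp90aa1 gave 12022, 12640 and 13490. The small chaperone Hspb1 was the lowest in rank, with 2031, 872 and 1313.

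Interferon-stimulated genes were all detected at middle to high ranks. All 23 measured were above background on every array, with a median percentile of 83.6. Ifitm3, which blocks the entry of viruses, gave 12592, 15154 and 18065. Rsad2 gave 2938, 4009 and 3661, Oas1a gave 3937, 4055 and 2700, and Xaf1 gave 4451, 4203 and 3820. Several members were highest on array 2, among them Oasl2 with 1647, 3110 and 1600 and Ifih1 with 1216, 2226 and 908. Gbp3, also among the widest of the list, was instead lowest on array 2, with 1931, 914 and 2148. The mean deviation of the list was 0.13 log2 units on array 2 and -0.12 on array 3. Mx2 was the lowest in rank, at 420, 383 and 182.

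Genes of protein synthesis and energy supply were detected throughout. All 19 ribosomal protein genes of the fixed list were above background on every array, with a median percentile of 99.8, though Rpl37 gave only 152, 59.1 and 93.7 through an x_at probe set. All 24 genes of the respiratory chain and ATP synthase passed, with a median percentile of 91.8, and Uqcrh gave 7379, 9133 and 9337. Cox7c was the lowest of them in rank and the widest, with 539, 1395 and 330. Of 19 genes of glycolysis and its transporters 18 passed, with a median percentile of 85.4. Aldoa gave 8491, 8159 and 8332, Pkm gave 5355, 5358 and 5281, and the glucose transporter Slc2a1 gave 6882, 7471 and 8375. Pkm was nearly identical on the 3 arrays.

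Cell cycle genes were present at middle ranks. Of 25 measured, 22 were above background on all arrays, or 88% against 62.5% of all genes, with a median percentile of 57.5. Pcna, the sliding clamp of DNA replication and repair, gave 4657, 3314 and 4674, and Rrm2, a subunit of ribonucleotide reductase, gave 2240, 3680 and 1777. Mki67, the proliferation antigen, gave 893, 821 and 1110, and Top2a was at the 66.7th percentile. Plk1 gave 41.5, 137 and 4.42 and Aurka gave 123, 19.8 and 193. These mitotic kinases were low and differed between arrays, and they stand for no group.

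**Figure D3:**
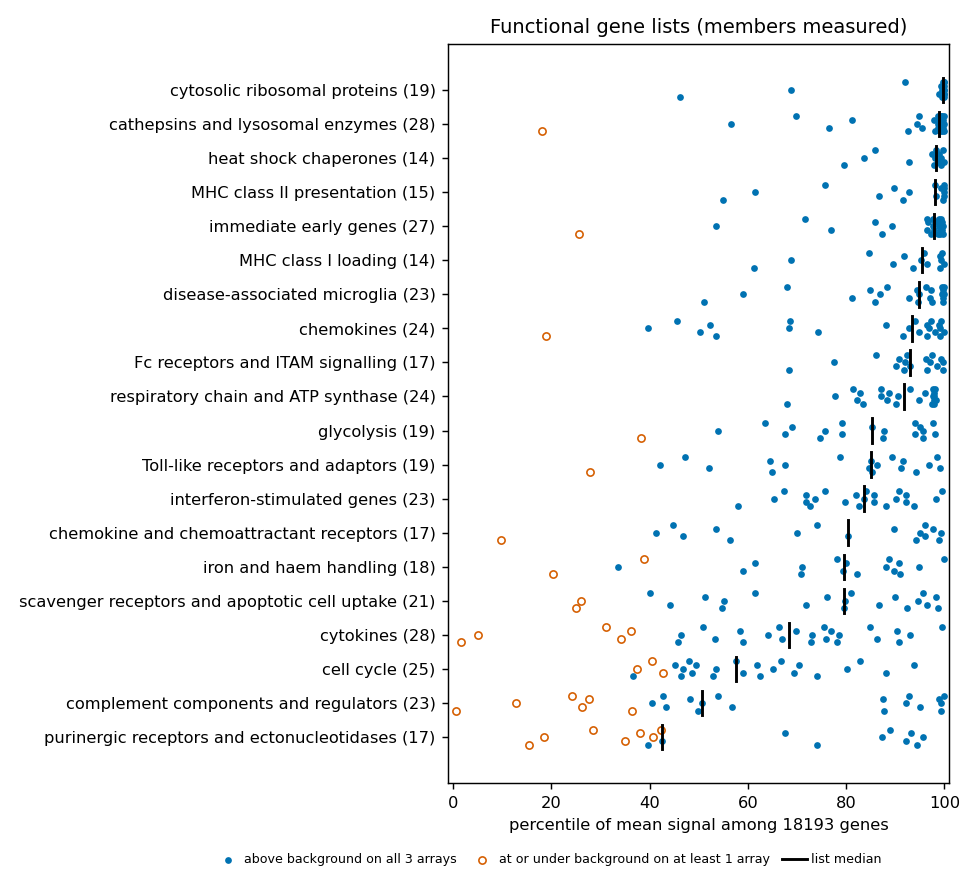
Percentile of mean signal among 18193 genes (horizontal axis) for the measured members of each functional gene list (rows, with the number measured), ordered by median. Filled points were above background on all 3 normal brain arrays, open points were at or under it on at least 1 array, and the bar is the list median, which runs from 42.5 for purinergic genes to 99.8 for ribosomal proteins.

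Genes of neurons, astrocytes, oligodendrocytes and their precursors had median percentiles between 23.2 and 48.2, with single high members. Of 18 neuronal genes 9 were above background on all arrays, of 15 astrocyte genes 11, of 13 oligodendrocyte genes 9 and of 10 oligodendrocyte precursor genes 2, against 62.5% of all genes. The shares of the astrocyte and oligodendrocyte lists, 73.3% and 69.2%, were thus no lower than that of all genes, while those of the neuronal and precursor lists were 50% and 20%. In the same order as the counts, their median percentiles were 39.97, 45.7, 48.2 and 23.2. At a stricter background of a signal of 100 on every array these counts were 1, 6, 5 and 0, against 8862 or 48.7% of all genes. Among neuronal genes Snap25, a protein of synaptic vesicle release, gave 39.2, 150 and 114. Syt1 gave 64.8, 2.44 and 24.3. Slc17a7, which marks excitatory neurons, gave 28.6, 8.25 and 4.65 and passed on array 1 only. The highest member, Eno2, gave 1154, 895 and 2070, and is also an enzyme of glycolysis.

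Of the myelin genes Mbp and Cnp were high, while Mag and Mog were far lower. Mbp, myelin basic protein, gave 3253, 5624 and 4474, the 94.2th percentile, and Cnp gave 3027, 4218 and 2783. Mobp gave 487, 2314 and 1040, and array 2 was highest for all 3. Mag gave 102, 38.2 and 44.1, and Mog was above background on array 1 only. The summed signal of the oligodendrocyte list was 7854, 13028 and 9679 on arrays 1, 2 and 3, and rests mostly on the highest members. The mean deviation of that list was -0.04, -0.02 and 0.06 log2 units, with no rise on array 2. For astrocytes Gja1, the gap junction protein connexin 43, gave 548, 1535 and 573, Slc1a3 gave 65.0, 493 and 320, and Gfap gave 116, 183 and 278. The summed signal of the astrocyte list was 2802, 5497 and 3805, highest on array 2. Its mean deviation was -0.44, 0.24 and 0.20 log2 units, so that arrays 2 and 3 were alike. The part of myelin debris, of other cells in the sort and of macrophage transcription in these levels was not tested.

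Endothelial genes were all above background, at lower ranks than the macrophage lists. All 17 measured passed on every array, against 62.5% of all genes, with a median percentile of 63.0. At a signal of 100 on every array 13 of the 17 passed, against 48.7% of all genes. Cldn5, a tight junction protein of the blood-brain barrier, gave 943, 538 and 1287, and Slco1a4 gave 796, 643 and 1016. Pecam1 and Cdh5, which join endothelial cells, were lower, at 98.3, 62.5 and 41.2 and at 22.4, 23.7 and 23.5. Of 15 pericyte and fibroblast genes 9 passed, or 60% against 62.5% of all genes, with a median percentile of 44.0. At a signal of 100 the count was 4, against 48.7% of all genes. Col1a1 gave 31.3, 170 and 581, the widest of that list, while Rgs5 gave 218, 503 and 638.

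Choroid plexus and pituitary genes were mostly low, with a single high transcript in each list. Ttr, transthyretin, which choroid plexus epithelium makes in very large amounts, gave 2538, 3027 and 1875, the 88.0th percentile. Of 13 choroid plexus and ependymal genes 3 passed on all arrays, or 5 with array 3 left out. The 3 were a share of 23.1%, against 62.5% of all genes. Clic6 and Foxj1 of the defining markers were not above background on any array. Gh, growth hormone, gave 2133, 2489 and 2720, also at the 88.0th percentile. All 4 Gh probe sets were above background on every array, with mean log2 values of 11.25, 11.10, 11.03 and 9.95. The other pituitary hormone genes were far lower, with Pomc at 158, 119 and 93.1, Prl at 121, 56.7 and 57.4 and Lhb not above background on any array. Of 12 pituitary genes 4 passed on all arrays, or 33.3% against 62.5% of all genes, and 1 at a signal of 100.

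Blood cell genes ranged widely. Of 14 B and plasma cell genes 13 were above background on all arrays, or 92.9% against 62.5% of all genes. Their median percentile was 71.4, and 11 of the 14 passed at a signal of 100, against 48.7% of all genes. Jchain, which joins the subunits of secreted antibodies, gave 3923, 3090 and 2959, Cd79b of the B cell receptor gave 2296, 1876 and 2066, and Ms4a1, which encodes CD20, gave 1187, 938 and 910. The B cell factor Pax5 was not above background on any array, with 1.69, 1.18 and 2.502. Of 17 T and NK cell genes 16 passed, or 94.1% against 62.5% of all genes, with a median percentile of 59.4. At a signal of 100 on every array 12 of the 17 passed. Gzma, a granzyme of cytotoxic cells, gave 2456, 1998 and 3294, and Cd3e of the T cell receptor complex gave 391, 1518 and 474, with array 2 the highest. Cd3d was steadier, with 507, 596 and 429.

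Of 16 neutrophil genes 15 were above background on all arrays, or 93.75% against 62.5% of all genes, with a median percentile of 58.8. At a signal of 100 on every array 10 of the 16 passed, against 48.7% of all genes. S100a9 and S100a8, the subunits of calprotectin, which monocytes share with neutrophils, gave 19627, 21953 and 26142 and 14621, 16486 and 19814. Ngp and Camp of neutrophil granules gave 2255, 1982 and 2573 and 2255, 2545 and 1898. Elane gave 50.6, 24.5 and 53.7, and the neutrophil chemokine receptor Cxcr2 gave 28.8, 70.5 and 64.7. The granule genes were thus at very different ranks. Of 10 erythroid genes 3 passed, or 30% against 62.5% of all genes, with a median percentile of 22.96. Hbb-b2, a beta globin, gave 9087, 12234 and 15120, while Alas2, the haem synthesis enzyme of red cells, gave 317, 514 and 928. The single-symbol probe set of Hba-a1 was not above background on any array, and a second Hbb-b2 probe set had a mean log2 value of only 6.21. Of 14 platelet and mast cell genes 10 passed, or 71.4% against 62.5% of all genes, with a median percentile of 45.6. At a signal of 100 the count was 4, against 48.7% of all genes. Xist, the RNA of the inactive X chromosome, gave 8063, 10119 and 11095, while the Y-linked Eif2s3y, Uty and Kdm5d were not above background on any array and Usp9y passed on array 2 only.

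**Figure D4:**
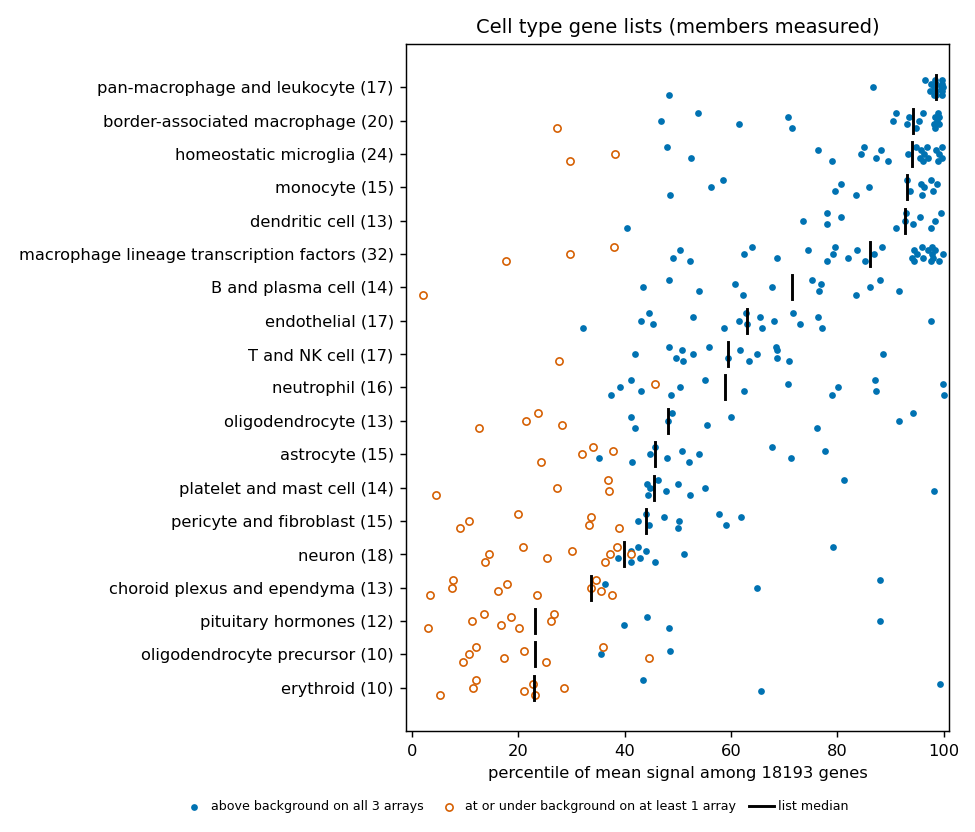
Percentile of mean signal among 18193 genes (horizontal axis) for the measured members of each cell type and lineage list (rows, with the number measured), ordered by median. Filled points were above background on all 3 normal brain arrays, open points were at or under it on at least 1 array, and the bar is the list median. The 5 lists of macrophages, monocytes and dendritic cells have medians above 92, and erythroid and oligodendrocyte precursor genes have medians near 23.

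The spread between arrays depended on the signal. Over the 11378 genes above background the median SD was 0.353 log2 units (n = 3 arrays), and it was 0.564 in the group of lowest signal and 0.189 in that of highest signal when the genes were put in 5 groups of equal size. In all, 3646 genes, or 32.0%, had a range of more than 1 log2 unit, of which 46 lay among the 2276 genes of the highest group. Array 1 was the lowest in 633 of the 3646 genes, array 2 in 1454 and array 3 in 1559. With any 1 array left out, 1969 to 2405 genes had such a range. Only 1 gene of the highest group had a range over 2 log2 units.

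The 10 genes with the smallest SD were taken from the 1795 genes above the 90th percentile whose symbols are no clone names. Nfe2l2, which encodes the antioxidant factor NRF2, had signals of 6213, 6253 and 6221 and the smallest SD, 0.0049 log2 units. P2ry6, Cd44, Icam1, an adhesion molecule of activated cells, and the glycolytic Pkm were among the 10. The others were Syngr2, Nfya, which encodes a subunit of NF-Y, Slc35a2, Park7 and Apex1. Their SDs ran up to 0.0118 log2 units, which the selection fixed.

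The 25 genes with the widest range between arrays were mostly near background on at least 1 array. Their ranges ran from 5.24 to 6.92 log2 units, and 23 had at least 1 array at or under background. Ncam1, a neural adhesion molecule, gave 9.90, 282 and 1921. Ccn2, a matrix-associated growth factor, gave 2.74, 891 and 493. Smpd4, a sphingomyelinase gene, was high on arrays 1 and 2 and at background on array 3, with 887, 1218 and 5.56. Elavl3, an RNA-binding protein of neurons, gave 38.7, 21.0 and 1302, and Nr2e1, a factor of neural stem cells, gave 0.14, 0.81 and 346. The growth factor genes Vegfd and Vegfc were highest on array 3 as well, at 578 and 291. The highest value was on array 3 in 15 of the 25 and on array 2 in 10, and on array 1 in 0. The other members were Septin4, Bbs5, Nectin1, Fam228b, Smarcd3, Chil1, Ube2cbp, Rasl11b, Lox, Zfp133-ps, Myl7, Dpysl3, Plekha6, Zfp551, Slc7a12, Nbl1, Colec11 and Aff2.

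**Figure D5:**
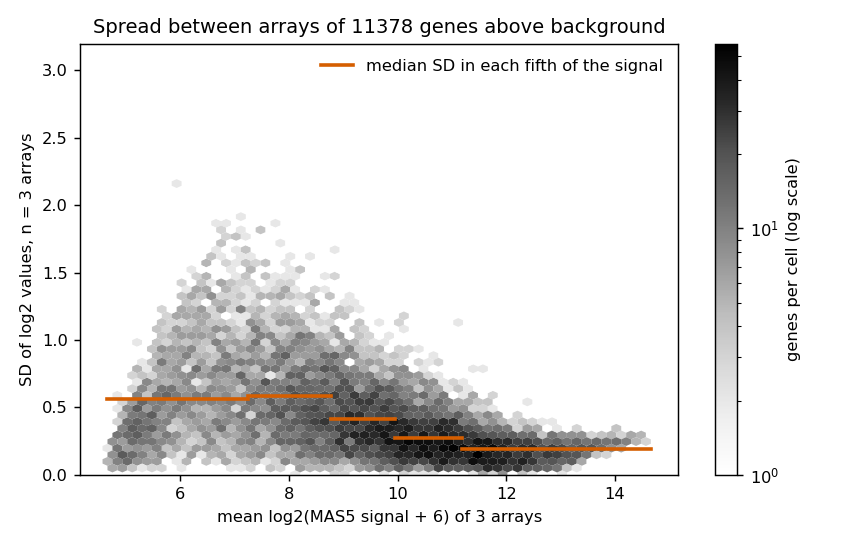
SD of the log2 values of 3 normal brain arrays (vertical axis) by mean log2(MAS5 signal + 6) (horizontal axis) for the 11378 genes above background on all arrays, as a map whose shade gives the number of genes on a log scale. The orange bars are the median SD in 5 groups of equal size by signal, 0.564, 0.586, 0.410, 0.270 and 0.189 from the lowest to the highest.

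Wide differences at high signal were rare. The genes given here are among those of widest range above the 75th percentile, were picked after their values were seen and stand for no group. Cpe, a peptide-processing enzyme of neuroendocrine cells and glia, gave 421, 2091 and 1304. Apod, a lipid carrier of glia, gave 1317, 3694 and 4403, and Gpm6b, a proteolipid-family protein of glia and neurons, gave 490, 1629 and 1653. Array 1 was the lowest for these 3 genes and for Mobp. It was also the lowest for Abcb1a and Dkc1, so this was not limited to genes of glia. Abcb1a, the drug efflux pump of brain endothelium, was highest on array 2, with 645, 2502 and 750. Tsr1 gave 2220, 419 and 1097, Dkc1 gave 868, 3820 and 3050, and Ccnh gave 3375, 4641 and 1018. Apart from Mobp and Abcb1a, these genes belong to none of the brain cell lists.

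Some gene lists shifted between arrays. Of 41 lists, 9 had a mean deviation of at least 0.3 log2 units from the mean of the arrays on some array, while over all genes above background on at least 1 array it was 0.12, -0.05 and -0.07 on arrays 1, 2 and 3. The sex-linked list, of which 2 genes passed on any array, was at -0.64 on array 1. The astrocyte list was at -0.44 and the pericyte and fibroblast list at -0.46 on array 1. The purinergic list was at -0.52 on array 2 and at 0.45 on array 3. The neuronal list was at 0.32 on array 2, and the endothelial list at -0.33 and the choroid plexus list at -0.43 on array 3. The precursor list was at 0.44 on array 3, and the pituitary list at 0.35 on array 1. The homeostatic microglia list stayed between -0.12 and 0.08, the border-associated list between -0.02 and 0.04 and the monocyte list between -0.06 and 0.08. These lists had median log2 signals of 11.9 to 12.1, and the 9 lists had 3.8 to 8.8. The median SD of genes was 0.189 in the group of highest signal and 0.564 in the lowest, so the lists are not alike in spread. The count of 9 lists rests on the pseudocount, the scaling and single arrays, since it was 2 with a pseudocount of 58, 24 with median centring, 34 with scaling to the hybridisation controls, and 3 to 4 with any 1 array left out. With 1 group of 3 arrays no test of these deviations was possible.

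Many genes had probe sets that differed widely in signal. Of the 18193 genes, 9010 had 2 or more single-symbol probe sets, whose mean log2 values spanned a median of 2.36 units, and in 1215 genes they lay on both sides of background. For Lyz1 the lowest of 3 probe sets had a mean log2 value of 6.31, against 14.61 for the one used. Of the 809 entries of the gene lists, 72 were not analysed here.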

How the data were processed

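RNA of sorted macrophages was hybridised to Affymetrix mouse arrays. The authors deposited linear MAS5 signal intensities for each array, per the submitters' processing notes, scaled to a common trimmed mean, with 0 columns of no sample. The MAS5 version, its detection calls and a genome build were not given in the sources used here. No further scaling was applied. Of the 45101 probe sets, 64 were controls, 932 had several symbols and 9160 none. Symbols were checked against RefSeq (GRCm38.p6) by gene ID, of which 162 did not match and 0 changed, and promoter sequences are from RefSeq. Having 3 arrays limits the precision.

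Values were analysed as log2(signal + 6), described by mean, SD (n = 3), range and percentile, with no test. The genes named were the 30 of highest signal, the 25 of widest range, the 10 of smallest SD above the 90th percentile and, from each of 41 lists, the 5 highest, the lowest, the 3 widest and the defining markers. Clone names were left out. Other list members were chosen after their values were seen, and the members and lists were chosen with earlier results of these data known. Of 809 list entries 737 had a gene. The alternatives were a pseudocount of 1 or 58, the mean of a gene's probe sets, quantile normalization, median centring, 3 other background levels, no filter and leaving out each array. Scaling to 18 hybridisation controls was added after the data were seen. The code was tested on simulated data. Python 3.11.15, numpy 2.4.6, pandas 2.3.3 and matplotlib 3.10.9 were used.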

Additional observations from a re-analysis of the deposited data

How the results depend on the processing

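The number of genes above background on all arrays and the 16 lists with a median percentile above 90 kept within 1.5 times under each alternative run, at 8862 to 12276 genes. The median SD of 0.353 became 0.442 without the filter, 0.2997 with a pseudocount of 58, 0.446 with median centring, 0.540 with scaling to the hybridisation controls and 0.303 with a background of 100. It was 0.270 to 0.303 when each array was left out. The 3646 genes with a range over 1 log2 unit became 7713 without the filter, 5919 with scaling to the hybridisation controls, 2090 with a background of 100 and 1969 to 2405 without single arrays. The 9 lists with a deviation of at least 0.3 became 2 with a pseudocount of 58, 24 with median centring, 34 with scaling to the hybridisation controls and 3 to 4 without single arrays. With the mean of a gene's probe sets 17 of the top 30 genes remained in it, and 268 of 393 named genes and 28 of 41 list medians moved by more than their spread between arrays, the largest being Ighm by 38.3 percentile points. A background of 100 changed the count of members by over 1.5 times in 7 of 41 lists, all of other cell types. Fewer arrays give a smaller range by construction, and the cause of the other changes was not tested. No paired analysis was possible because the arrays form 1 group. Signals near background limit the precision of low genes, and 3 arrays allow no test of an array that stands apart.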
